A study of Mus musculus with 6 samples.

Results

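Insulin signalling was followed in cultured hepatocytes through 9 genes, listed by name with no threshold on their values. The list holds the receptor gene *Insr*, the receptor substrates *Irs1* and *Irs2*, and the PI3 kinase regulatory subunit gene *Pik3r1*. It also holds the kinase genes *Akt1* and *Akt2*, the inhibitor genes *Grb14* and *Ptpn1*, and the Tribbles pseudokinase gene *Trib1*. They are 9 of the 25184 genes in the counts table, and all 9 were abundant enough to be tested. The data are stranded mRNA sequencing of primary hepatocytes from 6 mice, 1 library per mouse. The control mice (*Sucnr1* fl/fl, n = 3) carried floxed alleles of *Sucnr1*, the receptor gene for the metabolite succinate, without Cre (Alb-Cre-/-), and the Hep-*Sucnr1* KO mice (n = 3) carried the same floxed alleles with 1 copy of Cre driven by the albumin promoter, which acts in hepatocytes (Alb-Cre+/-, from a C57BL6J line). All 6 mice were fed chow, and their cells were isolated by enzymatic digestion and density gradient and kept in culture overnight. The paper's methods describe fasting, refeeding and free access to food before euthanasia. They do not state which applied to the mice of these cells. The study's methods name high glucose and serum in the attachment medium and list no added insulin, and the age and sex of these 6 mice were not given in the sources used here.

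Insulin binds the receptor encoded by *Insr* and switches on its tyrosine kinase, which phosphorylates the docking proteins IRS1 and IRS2. These recruit PI3 kinase, whose regulatory subunit is encoded by *Pik3r1*, and the lipid it makes brings the kinases AKT1 and AKT2 to the membrane, where they are activated. In the liver this route lowers glucose output, largely because AKT keeps the transcription factor FOXO1 out of the nucleus, and raises lipid synthesis. *Irs2* is itself a gene that FOXO1 activates and insulin represses in hepatocytes.

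The promoters of the receptor substrates are shown because these 2 genes had the lowest fold changes of the 9. Each line gives the 250 bases before the RefSeq start site (GRCm38.p6), 5′ to 3′ on the strand of the gene, with TGTTTTG, the core of the insulin response sequence, in capitals. The *Irs1* stretch is chr1:82291440-82291689 and the *Irs2* stretch is chr8:11008930-11009179, both on the minus strand.
Irs1: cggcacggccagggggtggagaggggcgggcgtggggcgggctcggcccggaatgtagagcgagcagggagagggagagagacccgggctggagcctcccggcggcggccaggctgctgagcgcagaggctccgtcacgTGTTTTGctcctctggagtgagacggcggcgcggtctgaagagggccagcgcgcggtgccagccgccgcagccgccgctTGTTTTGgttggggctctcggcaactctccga
Irs2: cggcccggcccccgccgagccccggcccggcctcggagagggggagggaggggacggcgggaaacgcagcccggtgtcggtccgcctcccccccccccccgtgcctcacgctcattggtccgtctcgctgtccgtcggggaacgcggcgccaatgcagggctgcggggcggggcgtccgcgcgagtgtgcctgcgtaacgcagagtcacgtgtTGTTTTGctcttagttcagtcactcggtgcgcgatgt
*Irs1* held the core at 2 places, beginning 111 and 32 bases before the start, and *Irs2* held it at 1 place, 37 bases before the start. RefSeq entries matched 7 of the 9 genes with 12 promoter windows of 300 bases (250 before and 50 after the start), and these were searched on both strands for TGTTTTG and for TGTTTAC, the core of the forkhead site. TGTTTTG was found in 2 of the 12 windows, those of *Irs1* and *Irs2*, and in 6.3% of all 32851 promoters of that length. TGTTTAC was found in 1 window, that of the first *Akt1* start site, and in 3.6% of all promoters. These matches describe letters and were not tested as binding sites. *Insr* and *Trib1* had no entry.

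Each library held between 30504248 and 38770694 counts, and the 9 genes had from 69 counts (*Irs1* in the lowest library) to 7512 counts (*Trib1* in the highest). The deleted gene was measured first: *Sucnr1* stood at 6.71, 3.55 and 3.40 CPM (counts relative to the library total, scaled with TMM factors) in *Sucnr1* fl/fl replicates 1, 2 and 3, and at 2.66, 0.827 and 0.152 CPM in Hep-*Sucnr1* KO replicates 3, 4 and 5. The KO libraries were all below the controls, and the log2 fold change was -2.23 with an unadjusted p of 0.00444 and an adjusted p of 0.998 by the quasi-likelihood test of edgeR, Benjamini-Hochberg adjusted over 15105 genes. Hepatocyte markers summed to 66403 to 89962 CPM in controls and 57680 to 92050 CPM in KO libraries, with 6 of 7 markers tested. Non-parenchymal markers were present: the 9 Kupffer cell markers summed to 34.2 to 123 CPM in controls and 7.31 to 106 CPM in KO libraries. Extraction day 1 held 1 library of each genotype (control replicate 1 and KO replicate 3) and day 2 held the other 4. Control replicates 1 and 2 also carried library indexes from a different part of the index set than the other 4 libraries, so index number and genotype were partly confounded. In a model with the index series, control replicate 3 is the only control in the same series as the KO libraries. Control replicates 1 and 2 then reach the genotype difference only through the day term.

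No member of the pathway passed the test for a difference between genotypes. By edgeR (quasi-likelihood test, Benjamini-Hochberg adjustment), 0 of the 9 genes and 0 of all 15105 genes (0%) had an adjusted p below 0.05, and the adjusted p was 0.998 for 8 of the 9 and 0.999 for *Akt1*. At an unadjusted p below 0.05 there was 1 of the 9, *Irs2*, beside 3.73% of all genes (1.81% lower and 1.91% higher in KO libraries). DESeq2 called 0 of the 9 and 7 of the 11005 genes to which it gave an adjusted p (0.0636%), and again had *Irs2* alone at an unadjusted p below 0.05, beside 2.88% of all genes. The log2 fold change of KO against control was below 0 for 8 of the 9 genes, beside 49.5% of all genes, with a median of -0.09 for the 9 and 0.003 for all genes. Among the 8 are *Akt1* (-0.0005) and *Ptpn1* (-0.008), which were so near 0 that their sign carries no weight. The count of 8 rested on single libraries: it was 3 of 9 without control replicate 2 and 4 of 9 without KO replicate 5. It was 3 of 9 with the library index series in the model, where control replicate 3 is the only control in the series of the KO libraries. In bulk libraries fewer cells of a type and less RNA per cell cannot be told apart.

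**Figure D1:**
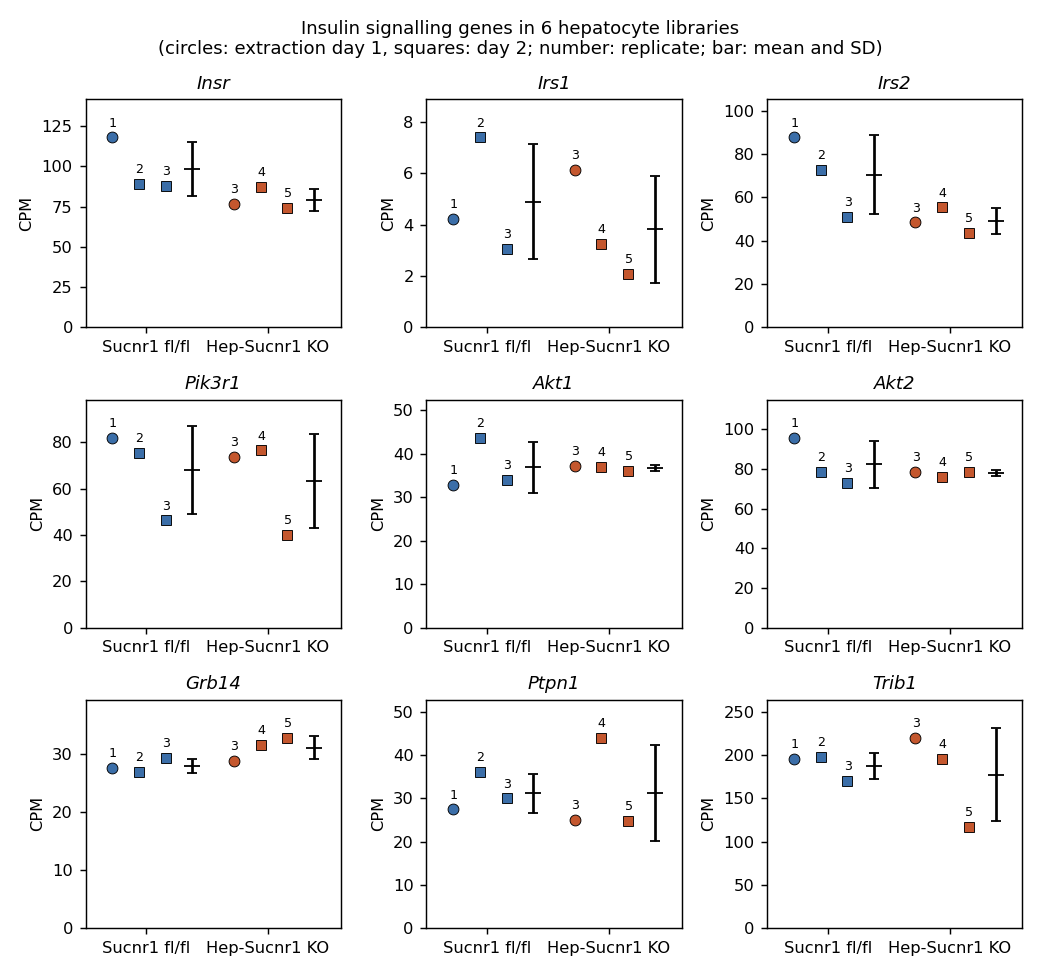
CPM of the 9 insulin signalling genes in each library (circles for extraction day 1, squares for day 2, the number is the replicate), with the mean and SD of each genotype (n = 3) beside the points. The KO points lie below all control points for *Insr*, with KO libraries at 74.0 to 87.1 CPM and controls at 88.1 to 118 CPM, and the genotypes overlap for the other 8 genes.

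*Insr*, which encodes the insulin receptor, was the only one of the 9 genes whose genotypes did not overlap, beside 10.6% of all genes without overlap (4.04% with KO lower and 6.54% with KO higher). It stood at 118, 89.4 and 88.1 CPM in control replicates 1, 2 and 3 and at 76.9, 87.1 and 74.0 CPM in KO replicates 3, 4 and 5. The gap was narrow, since KO replicate 4 lay just under the lowest control. The means were 98.5 ± 16.9 CPM in controls and 79.3 ± 6.85 CPM in KO libraries (SD, n = 3). The log2 fold change was -0.30 (SE 0.14, 95% interval -0.63 to 0.03), with an unadjusted p of 0.0711. In percent of the control level the interval ran from -35.4% to 2.37%. A two-sided exact permutation of the libraries gave p = 0.1, which is as low as 3 against 3 can reach. Much of the difference came with the day 1 pair, 1 library of each genotype. Without control replicate 1 the log2 fold change of *Insr* was -0.14, and without KO replicate 3 it was -0.15. With day in the model, leaving out either one leaves the genotype difference to the day 2 libraries. The 2 removals therefore cannot assign the difference to 1 library. Control replicate 1 was also highest of the 6 for summed endothelial markers (62.5 CPM against 26.02 to 40.46 CPM in the others, 8 of 8 markers tested). The same held for stellate cell markers (21.0 CPM against 3.43 to 8.001 CPM, 4 of 7 tested). It was not highest for Kupffer cell markers (37.9 CPM, with 123 CPM in control replicate 3) or cholangiocyte markers (463 CPM, with 650 CPM in KO replicate 3). The part of these cells in the *Insr* and *Irs2* values was not tested.

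*Irs2*, the main receptor substrate of the fasted liver, had the lowest fold change of the 9. Its levels were 87.7, 72.7 and 51.2 CPM in control replicates 1, 2 and 3 and 48.5, 55.4 and 43.7 CPM in KO replicates 3, 4 and 5. Control replicates 1 and 2 lay above every KO library, while control replicate 3 lay below KO replicate 4. The means were 70.5 ± 18.4 CPM and 49.2 ± 5.92 CPM (SD, n = 3). The log2 fold change was -0.50 (SE 0.19, 95% interval -0.95 to -0.04), an interval of -48.4% to -3.03% of the control level, with an unadjusted p of 0.0358 in edgeR and 0.0233 in DESeq2. The exact permutation test, which does not use the day, gave p = 0.2. Its size moved with the libraries used: the log2 fold change was -0.32 without control replicate 1, -0.33 without KO replicate 3 and -0.68 without control replicate 3. It was -0.09 with the index series in the model, where control replicate 3 is the only control in the series of the KO libraries. Over the other alternatives the unadjusted p ranged from 0.00752 to 0.198, both in edgeR. The log2 fold change was below 0 in all 15, which reuse the same libraries and are not separate checks.

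*Irs1*, the other substrate, was the least abundant of the 9 and the most variable. It stood at 4.21, 7.40 and 3.07 CPM in control replicates 1, 2 and 3 and at 6.14, 3.25 and 2.09 CPM in KO replicates 3, 4 and 5. The genotypes overlapped widely, with the second highest value in a KO library. The log2 fold change was -0.46 (SE 0.45, 95% interval -1.54 to 0.62), an interval from -65.5% to 53.3% of the control level, and the unadjusted p was 0.345. Its direction turned without control replicate 2, where the log2 fold change was 0.13. Exons of *Irs1* share 2822 bases with *Gm9747* on the opposite strand, and those of *Irs2* share 162 bases with *9530052E02Rik*; the counting used strand.

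*Pik3r1* encodes the regulatory subunit that ties PI3 kinase to IRS proteins. Its levels split the libraries in the same way in both genotypes: 82.0 and 75.4 CPM in control replicates 1 and 2 and 73.6 and 76.6 CPM in KO replicates 3 and 4, but 46.3 CPM in control replicate 3 and 40.2 CPM in KO replicate 5. Both low libraries were from day 2, and so were 2 of the high ones. KO against control gave a log2 fold change of -0.09 (SE 0.27, 95% interval -0.74 to 0.56; unadjusted p = 0.746), and it was 0.12 without control replicate 2 and also 0.12 without KO replicate 5.

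The AKT kinase genes had means close to each other in the genotypes. *Akt1*, the broadly expressed isoform, was at 32.7, 43.7 and 34.1 CPM in control replicates 1, 2 and 3 and at 37.2, 37.0 and 36.0 CPM in KO replicates 3, 4 and 5. The KO libraries lay inside the control range, and the log2 fold change was -0.0005 (95% interval -0.32 to 0.31). *Akt2*, the isoform most tied to glucose handling in the liver, was at 95.8, 78.6 and 72.8 CPM in controls and at 78.7, 76.1 and 78.6 CPM in KO libraries. Its log2 fold change was -0.07 (SE 0.11, 95% interval -0.35 to 0.20), with an unadjusted p of 0.539 in edgeR. It turned to 0.03 without control replicate 1, which held the highest *Akt2* value, and to 0.02 without KO replicate 3, the other day 1 library. In percent of the control level the intervals ran from -19.6% to 24.4% for *Akt1* and from -21.3% to 14.7% for *Akt2*.

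*Grb14*, whose product binds the active receptor and blocks its kinase, was the only gene with a fold change above 0 and the steadiest of the 9. It stood at 27.6, 27.0 and 29.3 CPM in control replicates 1, 2 and 3 and at 28.9, 31.6 and 32.8 CPM in KO replicates 3, 4 and 5. The genotypes overlapped, since control replicate 3 lay above KO replicate 3. KO against control gave a log2 fold change of 0.15 (SE 0.10, 95% interval -0.09 to 0.40; unadjusted p = 0.180) and stayed between 0.11 and 0.19 over the 15 alternatives.

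*Ptpn1* encodes PTP1B, the phosphatase that removes phosphate from the receptor. It was at 27.5, 36.2 and 30 CPM in control replicates 1, 2 and 3 and at 25.01, 44.04 and 24.71 CPM in KO replicates 3, 4 and 5, so the highest and the lowest library were both KO. The log2 fold change was -0.01 (SE 0.22, 95% interval -0.52 to 0.51), and its direction depended on the library left out (-0.30 without KO replicate 4 and 0.18 without KO replicate 5).

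*Trib1*, a Tribbles pseudokinase that brings proteins to the COP1 ubiquitin ligase, was the most abundant of the 9. It stood at 195, 198 and 170.1 CPM in control replicates 1, 2 and 3 and at 220.1, 195 and 117 CPM in KO replicates 3, 4 and 5. KO replicate 5 was far below the other 5 libraries, and the log2 fold change of -0.10 (SE 0.21, 95% interval -0.61 to 0.41; unadjusted p = 0.652) was 0.12 without it.

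**Figure D2:**
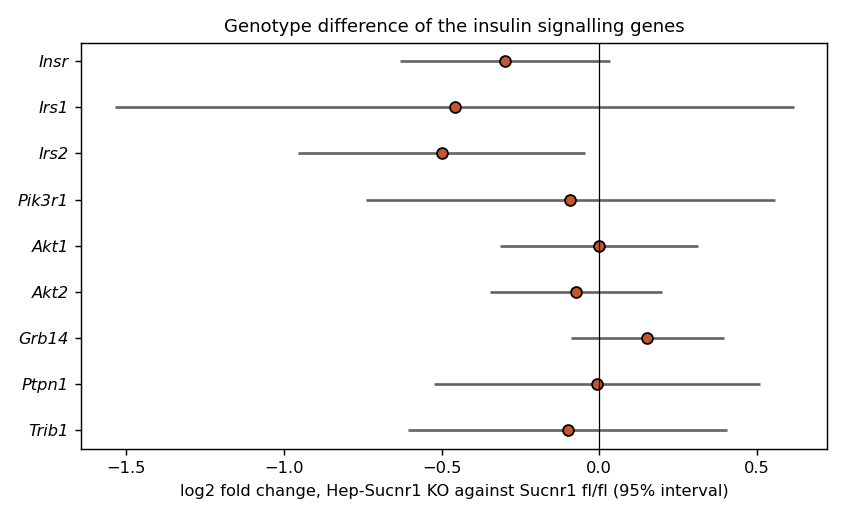
Difference between genotypes for the 9 genes, as the log2 fold change of KO over control (point, with its 95% interval from the edgeR fit as a line). The interval of *Irs2* (-0.95 to -0.04) is the only one that leaves out 0, and that of *Irs1* is the widest.

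Compared per length, the span from the most to the least abundant of the 9 genes was far wider than any difference between genotypes. TPM (transcript abundance computed from the counts and the summed exon length, scaled to the same total in each library) put *Trib1* first at 58.1 ± 9.18 TPM in controls and 52.9 ± 17.9 TPM in KO libraries (SD, n = 3). In the controls it was followed by *Akt2* (22.3 ± 3.91 TPM), *Irs2* (21.7 ± 6.49 TPM), *Akt1* (17.4 ± 4.21 TPM), *Insr* (13.8 ± 2.57 TPM), *Pik3r1* (13.1 ± 4.34 TPM), *Ptpn1* (10.9 ± 2.37 TPM), *Grb14* (7.48 ± 0.335 TPM) and *Irs1* (1.06 ± 0.570 TPM). Neighbours in this order overlapped between control libraries except at *Trib1* over *Akt2*, *Ptpn1* over *Grb14* and *Grb14* over *Irs1*. In the KO libraries *Irs2* (14.4 ± 1.90 TPM) came after *Akt1* (16.6 ± 0.984 TPM), and *Insr* (10.7 ± 0.998 TPM) after *Pik3r1* (11.7 ± 3.996 TPM), with overlap at both places.

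**Figure D3:**
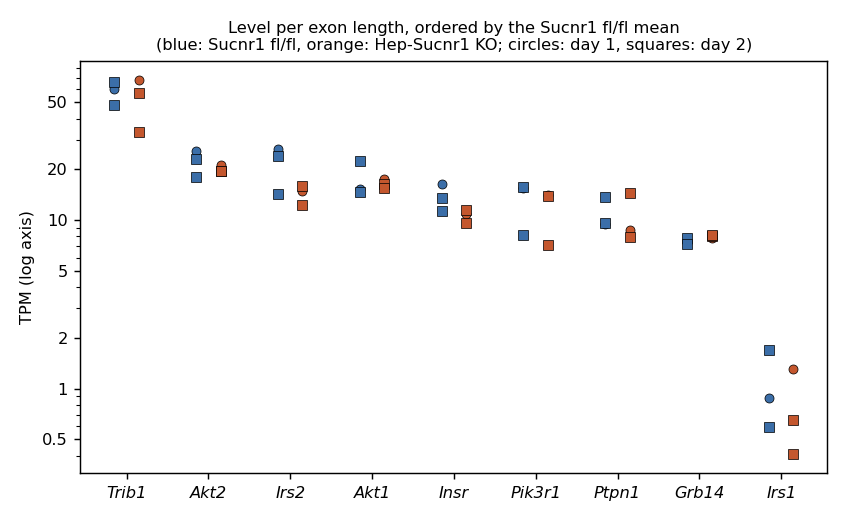
TPM of the 9 genes in each library on a log axis, in the order of the control means. *Trib1* is above all others in every library (33.3 to 68.3 TPM) and *Irs1* is below all others (0.408 to 1.69 TPM).

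Of the paired genes, *Irs2* was the predominant substrate transcript in every library, at 11.4 to 30.1 times the TPM of *Irs1*, with a mean ratio of 22.8 ± 8.03 in controls and 22.1 ± 9.63 in KO libraries (SD, n = 3). *Akt2* was at 1.03 to 1.68 times the TPM of *Akt1*. *Insr* was at 121 to 371 times the TPM of *Igf1r*, the related receptor gene that adult hepatocytes hardly express. Because *Igf1r* was low in every library (0.253 to 0.890 CPM, 115 counts in all), that ratio is imprecise. Of 8 such ratios, 1 did not overlap between genotypes: *Insr* to *Grb14*, the receptor to its inhibitor, was 1.85 ± 0.347 in controls and 1.34 ± 0.138 in KO libraries, with an exact permutation p of 0.1 and 0.8 after Benjamini-Hochberg adjustment over the 8.

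The spread over the 6 libraries, which includes the difference between genotypes, varied among the 9 genes. The range of log2 CPM over the 6 libraries was 1.79 for *Irs1*, 1.03 for *Pik3r1*, 1.01 for *Irs2*, 0.91 for *Trib1*, 0.83 for *Ptpn1*, 0.67 for *Insr*, 0.41 for *Akt1*, 0.40 for *Akt2* and 0.28 for *Grb14*. Among the 7066 genes with a mean of at least 10 CPM the median range was 0.445, so 6 of the 9 genes were above it (*Irs1* from a lower mean of 4.36 CPM) and the AKT genes and *Grb14* were below it. KO replicate 5 had the lowest of the 6 values for 6 of the 9 genes, and its median deviation from the mean of the 6 libraries was -0.30 on the log2 scale. Control replicate 3 was below that mean for 8 of the 9 genes, as was KO replicate 5, while control replicate 1 had the highest value for 4 genes.

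**Figure D4:**
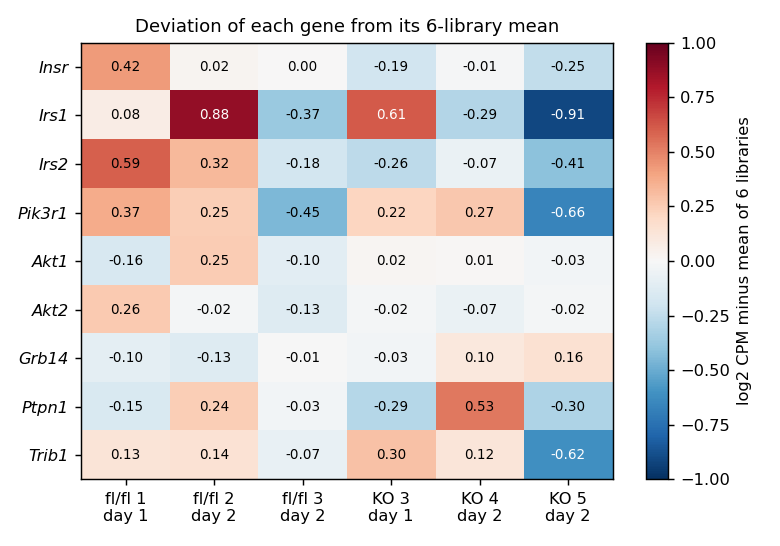
Log2 CPM minus its 6-library mean for each of the 9 genes (rows) and libraries (columns), blue and red marking values below and above the mean as the colour bar shows. KO replicate 5 is below the mean for 8 of the 9 genes, and so is control replicate 3.

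Differences between extraction days were of the same order as those between genotypes. For day 2 against day 1, 0 of the 9 genes passed in edgeR after Benjamini-Hochberg adjustment, beside 0 of all genes (0%), and 0 of the 9 had an unadjusted p below 0.05, beside 7.49% of all genes. DESeq2 called 0 of the 9 for day, beside 1.61% of all genes with an adjusted p. The log2 difference of day 2 from day 1 ran from -0.49 for *Irs1* to 0.36 for *Ptpn1*. Within days, KO minus control in log2 CPM was -0.62 on day 1 (1 library each) and -0.14 on day 2 for *Insr*, and -0.85 and -0.31 for *Irs2*. *Pik3r1* (-0.16 and -0.09) and *Grb14* (0.07 and 0.20) also kept their direction, whereas *Irs1* (0.54 and -0.85), *Akt1* (0.18 and -0.08), *Akt2* (-0.28 and 0.03), *Ptpn1* (-0.14 and 0.002) and *Trib1* (0.17 and -0.28) did not. The interaction of genotype and day had an unadjusted p between 0.106 (*Irs1*) and 0.883 (*Pik3r1*), with 0 of the 9 below 0.05 beside 3.69% of all genes, and none passed after adjustment in edgeR.

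The rest of the pathway was read from a list of 56 further genes, of which 52 were tested. None passed after adjustment in edgeR or DESeq2, and 1 of the 52 had an unadjusted p below 0.05 in edgeR (beside 3.73% of all genes) and 0 in DESeq2 (beside 2.88%). With each library left out, that count ran from 0 to 3. It was 0 without control replicate 3 (beside 486 among all genes in that fit) and without KO replicate 5 (beside 832). It was 3 without control replicate 2 (beside 537) and without KO replicate 4 (beside 506). Of the 52, 32 had a fold change below 0 and 20 above, beside 49.5% of all genes below 0, with a median of -0.06. The 1 gene was *Sos2*, an exchange factor that links receptors to RAS, at 24.4, 22.0 and 20.1 CPM in controls and 19.4, 18.8 and 16.6 CPM in KO libraries (log2 fold change -0.28, unadjusted p = 0.0418). By role, 3 of the 5 receptor and hormone handling genes were below 0, from *Igf1r* (-0.61, at only 0.253 to 0.890 CPM) to the insulin-degrading enzyme gene *Ide* (0.07). So were 7 of the 8 adaptor genes, from *Gab1* (-0.34) to *Shc1* (0.03), and 3 of the 5 PI3 kinase genes, from the catalytic subunit gene *Pik3cb* (-0.33) to the regulatory subunit gene *Pik3r3* (0.97), which was low in every library (0.132 to 0.561 CPM). Among the 18 downstream kinases and effectors 10 were below 0, and *Mlst8*, of the mTOR complexes, was highest (0.10). Among the 16 phosphatases and inhibitors 9 were below 0, from *Phlpp1* (-0.26) to *Socs1* (0.26). *Insrr*, *Irs3* and *Trib2* were below the filter on low counts, and *Irs4* was not analysed here.

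**Figure D5:**
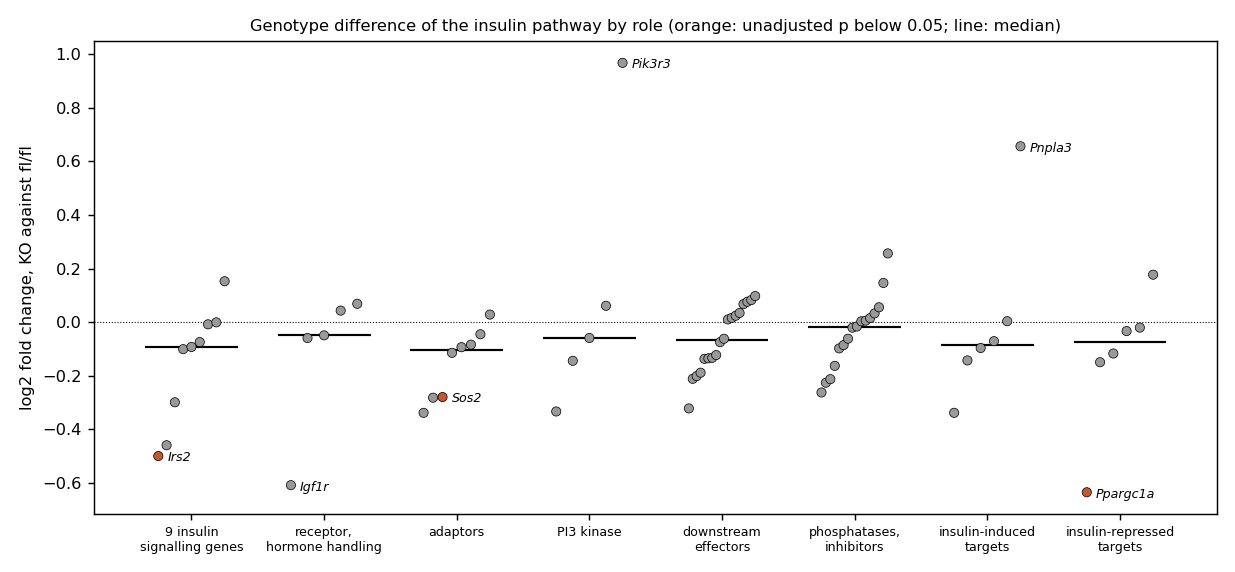
Log2 fold change of KO against control for the 9 genes, for the wider pathway by role and for insulin target genes (1 point per gene, line at the median, orange for an unadjusted p below 0.05). The medians lie between -0.10 and -0.02 in every column, and *Irs2*, *Sos2* and *Ppargc1a* are the orange points.

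Genes that insulin acts on downstream were read in the same fit. Of 6 genes that insulin induces, 4 had a fold change below 0, beside 49.5% of all genes. Among the 4 were the fatty acid synthesis genes *Acaca* (-0.34) and *Fasn* (-0.10) and the desaturase gene *Scd1* (-0.07). The lipogenic regulator *Srebf1* was at 0.004 and *Pnpla3* at 0.66. Of 6 genes that FOXO1 activates and insulin represses, 5 were below 0, beside the same 49.5%. They were *Ppargc1a* (-0.63), the gluconeogenic genes *G6pc* (-0.15) and *Pck1* (-0.02), *Pdk4* (-0.12) and *Sesn1* (-0.03), while *Igfbp1* was at 0.18. *Srebf1*, *Pck1* and *Sesn1* were so near 0 that their sign carries no weight. None passed after adjustment in edgeR or DESeq2. *Ppargc1a*, a coactivator of the fasting programme, was the 1 of the 12 with an unadjusted p below 0.05 (0.0445), beside 3.73% of all genes, at 4.08, 2.74 and 2.90 CPM in controls and 2.09, 1.57 and 2.52 CPM in KO libraries. The count was 0 without control replicate 2, beside 537 among all genes in that fit. It was 3 without KO replicate 4, beside 506 among all genes. *Fasn* and *Srebf1* had the lowest unadjusted interaction p of the 12 (0.00674 and 0.00188, adjusted p 0.9997 in edgeR): KO minus control in log2 CPM was -1.45 on day 1 and 0.58 on day 2 for *Fasn*, and -0.97 and 0.48 for *Srebf1*. Day 1 held 1 library of each genotype.

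The genes most like the 2 most variable members were sought over the 6 libraries by the root mean square difference of log2 CPM, each gene centred on its own mean. For *Pik3r1* they were *Nfil3* (0.082), *Ahr* (0.0999), *Wipf3* (0.108), *Bach2* (0.115) and *Nanos1* (0.122), against a median of 0.462 over all genes tested. *Nfil3*, chosen for its likeness over these same libraries, was also lowest in control replicate 3 and KO replicate 5. That is not a separate observation. For *Irs1* they were *Zfp518b* (0.204), *1700086O06Rik* (0.214), *Grhl1* (0.221), *Gm43062* (0.221) and *Fam180a* (0.222), against a median of 0.653. Several were low, so their likeness is imprecise: *1700086O06Rik* had a mean of 0.660 CPM, *Gm43062* 0.169 CPM, *Fam180a* 0.704 CPM and *Nanos1* 0.168 CPM. These genes share the 6 libraries and their depth with the members, and the likeness is a description.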

How the data were processed

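Read pairs of 6 primary hepatocyte libraries were trimmed with Trim Galore 0.6.7, aligned to GRCm38 with STAR 2.7.10a and counted per gene with featureCounts by strand (Ensembl 102), as the paper and the submitters' processing notes state, and the authors deposited raw counts that are not normalized. Genotype and extraction day came from the labels. The filter on low counts was a mean normalized count above 5, met by 15105 genes. Genotype was tested with edgeR 4.0.16 (R 4.3.3), by the quasi-likelihood test in a model of day and genotype with TMM factors, and p-values were Benjamini-Hochberg adjusted over the whole table (threshold 0.05). The common biological coefficient of variation was 0.206. Log2 CPM used a prior count of 2, and TPM used exon lengths of the GENCODE annotation of GRCm38. The scripts were tested on simulated data. Alternatives were DESeq2 1.42.0, other scalings and filters, the day 2 libraries alone, other covariates, a robust fit and each library left out. Totals ran from 30504248 to 38770694 counts, and a gene at 1 CPM had at least 30 counts in a library.

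The 9 genes and the lists were chosen with earlier results of these data known. Named were the 9 genes, *Sucnr1*, the highest and lowest fold change in each role of the wider list with any gene at an unadjusted p below 0.05, the insulin targets, and the 5 genes most like each of the 2 members of largest range. Of the genes under this rule, 2 are not reported here. Gene counts do not separate isoforms, of which *Akt2* has 14 annotated.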

Additional observations from a re-analysis of the deposited data

How the results depend on the processing

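Over 15 alternatives the 9 genes gave 135 fold changes, of which 113 kept the direction reported and 22 did not, and 0 passed an adjusted p of 0.05. *Insr*, *Irs2* and *Grb14* kept their direction in all 15. The alternatives reuse the same 6 libraries and are not separate checks. Those without control replicate 1, without KO replicate 3 and on day 2 alone rest on nearly the same genotype comparison. DESeq2 called 7 genes of the whole table where edgeR called 0. With the library index series in the model, the median of the 9 genes was 0.11, and the log2 fold changes of *Irs1*, *Pik3r1*, *Akt1*, *Akt2* and *Ptpn1* were 0.14, 0.37, 0.16, 0.050 and 0.19. In that model control replicate 3 is the only control in the series of the KO libraries. Control replicates 1 and 2 enter only through the day term, so it is not an adjusted comparison of 3 against 3. Without the day term *Ptpn1* was at 0.0025, and in the day 2 libraries alone *Akt2* was at 0.021 and *Ptpn1* at 0.045. With each library left out, the median ran from -0.30 (without KO replicate 4) to 0.052 (without control replicate 2). The same removals gave -0.99 to 0.13 for *Irs1*, -0.41 to 0.12 for *Pik3r1*, -0.10 to 0.13 for *Akt1*, -0.14 to 0.030 for *Akt2*, -0.30 to 0.18 for *Ptpn1* and -0.29 to 0.12 for *Trib1*. The cause of these moves was not tested. No paired analysis was possible because the 2 genotypes share only replicate number 3, whose libraries were extracted on different days, and day was already a term of the model. The precision rests on 3 mice a genotype, and counting error and the spread between mice were not separated. *Irs1*, with 69 to 246 counts a library, had the fewest counts of the 9.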
